A study of Mus musculus with 48 samples.

Results

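Zeb1, Zeb2, Zfpm2, Jun and Srsf1 are 5 mouse genes that have been reported as targets of the miR-200 family of microRNAs (miRNAs). The study itself tested ZEB1, JUN and SRSF1 in a human cell line. It reports lower luciferase activity with miR-200b, miR-200c or both. For ZEB1, its positive control, it also reports lower mRNA and protein, and for JUN and SRSF1 no change of protein. Here the genes were taken by symbol and not by a cutoff on a measured difference, although earlier results of these data were known. Every probe of the mRNA arrays whose RefSeq transcript belonged to 1 of these symbols was taken. This gave 9 of the 26056 probes with a symbol, and 5 of the 19718 genes with a probe. Zeb1 and Jun had 1 probe each, Zeb2 and Zfpm2 had 2, and Srsf1 had 3. A gene with several probes was described by its brightest one on average across the 24 mRNA arrays, and its other probes are given beside it. The 9 probes were well above background on 24 of 24 arrays and none was saturated.

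Brain RNA came from male mice. WT mice were of the strain C57BL/6J, and Tg2576 mice, labelled Tg(APPSWE)2576Kha, are a model of Alzheimer's disease in which a prion protein promoter from hamster drives a human APP transgene with the Swedish mutation. Mice of both genotypes were 10 or 17 months old, and the tissue was cortex or whole brain, which gave 8 groups with 3 arrays each for mRNA and 3 for miRNA. The 2 genotypes carry different strain labels and came from different suppliers, so the transgene cannot be told apart from the strain background. The study's design text counts mice, but no label states that each array came from a mouse of its own, so the p-values measure the spread between these samples.

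The miR-200 family has an established place in the choice between epithelial and mesenchymal cell states. Its members pair with sites in the transcripts of Zeb1 and Zeb2, which encode zinc-finger repressors of E-cadherin and other epithelial genes, and these repressors in turn act on the promoters of the miR-200 genes. In the brain, Zeb2 takes part in the development of interneurons and the maturation of oligodendrocytes, and miR-200 miRNAs are known for their high level in olfactory tissue. Zfpm2 encodes Fog2, a cofactor of GATA factors that also binds a regulatory subunit of PI3K. The study did not find FOG2 among the candidate targets it precipitated with AGO2 from the cell line. It also states, without showing data, that the level of this gene in mouse brain is low. Jun encodes a subunit of the transcription factor AP-1, and Srsf1 encodes a splicing factor with serine and arginine repeats.

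The sequences below show which miR-200 miRNAs share the stretch that pairs with targets. They are mature sequences from RefSeq, written 5′ to 3′, with the seed (bases 2 to 8) in capitals, and all 5 miRNA names of the arrays matched an entry.
miR-200b: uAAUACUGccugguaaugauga
miR-200c: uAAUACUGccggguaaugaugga
miR-429: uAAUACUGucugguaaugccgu
miR-200a: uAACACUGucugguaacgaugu
miR-141: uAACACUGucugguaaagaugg

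The seed AAUACUG was shared by 3 of them, miR-200b, miR-200c and miR-429, and AACACUG by the other two. Counted from 1 at the 5′ end, miR-200c differed from miR-200b at U11G and A22G and had 1 base more, so that the seeds of the 2 miRNAs set against the genes here were the same. On GRCm38.p6, miR-200b lies on the minus strand at chr4:156055685-156055706 and miR-200c on the minus strand at chr6:124718324-124718346. Target sites in the 5 transcripts were not analysed here.

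Levels on the mRNA arrays are log2 signals minus the 75th percentile of the array, and can be set against each other for 1 probe across arrays but not between genes. That percentile lay between 507 and 824 in signal, with 34155 to 41087 probes well above background per array. No pair of arrays was identical. The 24 mRNA arrays lay on 3 slides: slide 1 held the 10-month-old cortices and 2 of the 17-month-old WT cortices, slide 2 the other 17-month-old cortices, the 10-month-old WT whole brains and 1 of the 10-month-old Tg2576 whole brains, and slide 3 the remaining whole brains. Marker genes of upper cortical layers were well above background on every array (8 of 8 genes) and so were those of deep layers (12 of 12). Of 10 cerebellar markers, 6 to 9 were well above background on the arrays of either tissue, and their mean level was higher in 17-month-old WT whole brains (-1.60 to -0.21) than in 17-month-old Tg2576 whole brains (-2.99 to -1.88). Cortices overlapped with whole brains in this level, since 1 of the 17-month-old WT cortices stood at -0.94. In bulk tissue, fewer cells of a type and less RNA per cell cannot be told apart.

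Over the 24 arrays, Zeb1 ran from 1.84 to 2.37 on the log2 scale, Zeb2 from 0.84 to 1.74, Zfpm2 from -0.41 to 0.93, Jun from 3.21 to 4.05 and Srsf1 from 1.64 to 2.25. The width of these ranges, set against all probes well above background on every array, stood at the 23.1th percentile for Zeb1, the 32.4th for Srsf1, the 59.0th for Jun, the 64.5th for Zeb2 and the 88.9th for Zfpm2. Zfpm2 thus varied more than most probes and Zeb1 less. The pooled standard deviation within groups was 0.11 for Zeb1, 0.19 for Zeb2, 0.31 for Zfpm2, 0.17 for Jun and 0.079 for Srsf1.

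**Figure D1:**
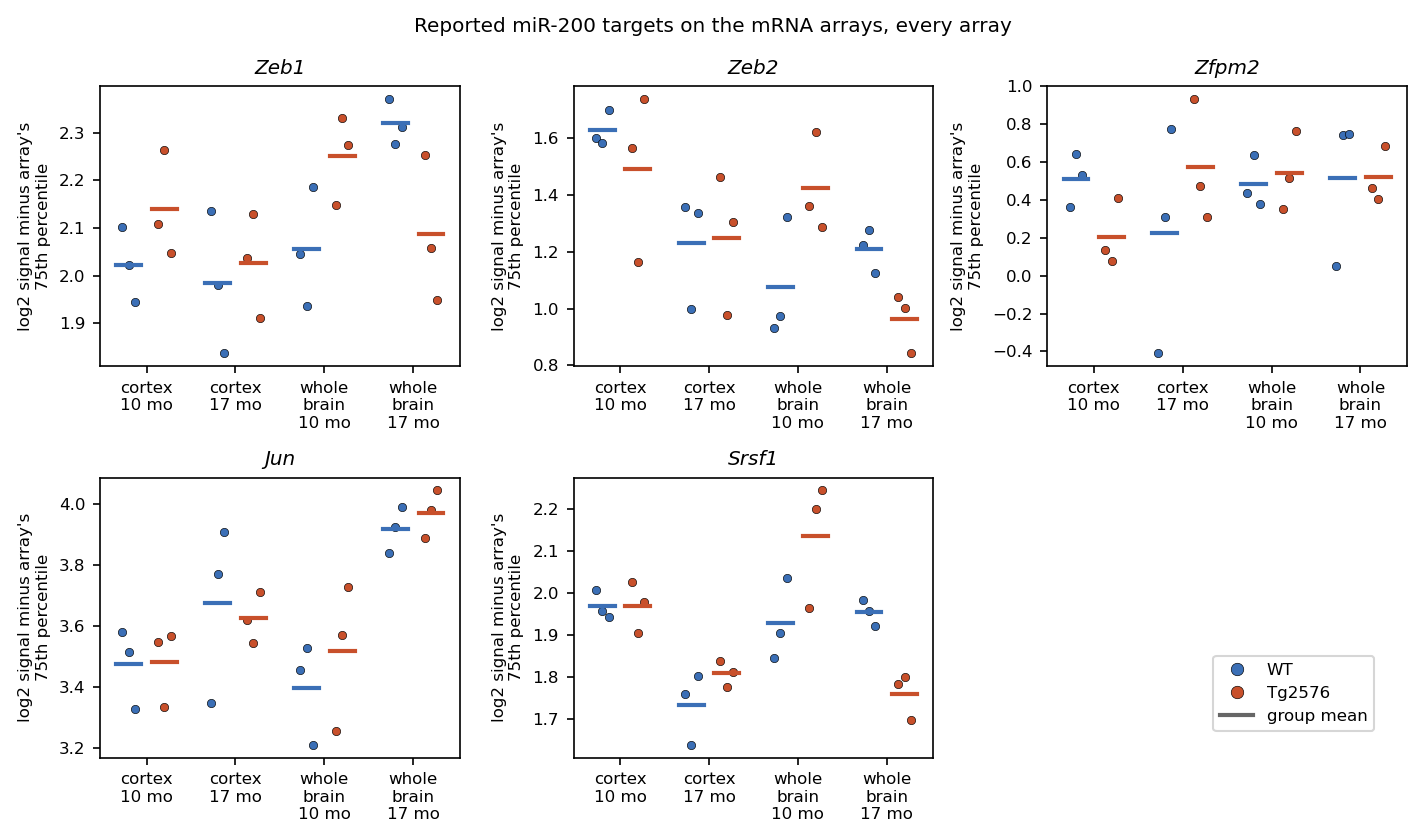
Log2 level of each gene on every mRNA array (y axis, log2 signal minus the 75th percentile of the array; the axes start at different values) by tissue and age (x axis), with WT in blue, Tg2576 in orange and a bar for the mean of the 3 arrays of a group. Jun is highest in the 17-month-old whole brains (3.84 to 4.05), while the Zfpm2 values of the 2 genotypes overlap in all 4 pairs of groups.

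Zeb1 had its highest group mean in 17-month-old WT whole brain (2.32 ± 0.048, SD, n = 3), then in 10-month-old Tg2576 whole brain (2.25 ± 0.093) and 10-month-old Tg2576 cortex (2.14 ± 0.11). The lowest was 17-month-old WT cortex (1.98 ± 0.15). No 2 neighbours in this order of 8 groups differed by more than the pooled standard deviation.

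Zeb2 was ordered otherwise, with 10-month-old WT cortex first (1.63 ± 0.062), 10-month-old Tg2576 cortex second (1.49 ± 0.29) and 17-month-old Tg2576 whole brain last (0.96 ± 0.11). Its neighbours also lay within the pooled standard deviation. The second Zeb2 probe correlated with the first at r = 0.82 over the 24 arrays.

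Zfpm2 group means ran from 0.21 ± 0.18 in 10-month-old Tg2576 cortex and 0.22 ± 0.60 in 17-month-old WT cortex to 0.57 ± 0.32 in 17-month-old Tg2576 cortex, and no neighbours were apart by more than the pooled standard deviation. The spread in 17-month-old WT cortex came with values of -0.41, 0.31 and 0.77, of which the first was the lowest of all 24 arrays. The second Zfpm2 probe correlated with the first at r = 0.87.

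Jun stood highest in 17-month-old Tg2576 whole brain (3.97 ± 0.079) and 17-month-old WT whole brain (3.92 ± 0.076). A step of 0.24 in log2, 1.45 times the pooled standard deviation, separated these 2 groups from 17-month-old WT cortex (3.68 ± 0.29), and the 10-month-old groups took the 4 lowest places down to 10-month-old WT whole brain (3.40 ± 0.17).

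The Srsf1 means formed 3 steps. The 10-month-old Tg2576 whole brains were highest (2.14 ± 0.15), by 0.17 in log2 or 2.12 times the pooled standard deviation above 10-month-old Tg2576 cortex. The next step, 0.12 or 1.52 times that deviation, lay between 10-month-old WT whole brain (1.93 ± 0.098) and 17-month-old Tg2576 cortex (1.81 ± 0.031), below which came 17-month-old Tg2576 whole brain (1.76 ± 0.056) and 17-month-old WT cortex (1.73 ± 0.085). The choice of the Srsf1 probe was close, since the mean over 24 arrays was 1.908 for the probe described and 1.9075 for the second. These 2 correlated at r = 0.60 only, against r = 0.88 with the third probe, so the other probes are given wherever Srsf1 differed.

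The miRNAs were measured on other arrays, and an array of each kind with the same genotype, tissue, age and replicate number was set side by side, although no label states that both came from 1 RNA extract. Values are log2 signals over the 75th percentile of the array, with a floor of -5.66. In 10-month-old WT cortices, miR-200b stood at -3.08, -2.92 and -4.34, and in 10-month-old Tg2576 cortices at 0.73, 0.55 and -2.04. Those 6 values did not overlap, and the third Tg2576 array lay nearer to the WT arrays than to the other two. The difference was 3.19 in log2 (SE 0.95, 9.13-fold), with an adjusted p of 0.429.

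For miR-200c, 10-month-old WT cortices gave -5.23, -5.24 and the floor, and Tg2576 cortices gave -0.96, -1.20 and -3.92. The groups were again apart, by 3.35 in log2 (SE 0.91, 10.2-fold), with an adjusted p of 0.420, and miR-200c was above background on 2 of 3 WT arrays. Without the third Tg2576 array, which lay nearest to WT, the adjusted p of miR-200c was 0.00822 and the difference 4.30. This was the 1 call of miR-200c among 14 alternatives. No mouse miRNA was called among 318 tested in this comparison (0% at an adjusted p under 0.05), 7.55% had an unadjusted p under 0.05, and 11% did not overlap between the groups. On the 1 miRNA slide with both genotypes, holding 2 WT and 3 Tg2576 arrays, the differences were 2.74 for miR-200b and 3.21 for miR-200c.

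At 17 months, miR-200b was at the floor on 1 of 3 WT and 2 of 3 Tg2576 cortices, while the third Tg2576 cortex stood at -0.65. The difference was 0.55 (SE 1.80, adjusted p 0.950), and miR-200c, above background on 1 of 3 arrays of each genotype, was not tested. In whole brain, single arrays were high in either genotype, with miR-200b at 0.41 in the first 10-month-old WT array and 0.47 in the second 10-month-old Tg2576 array. The differences of miR-200b were 0.55 at 10 and 0.64 at 17 months and those of miR-200c -0.56 and 0.71, with adjusted p values of 0.979 or 1. The adjusted calls were 0% in these 3 comparisons, with unadjusted calls of 16.7% (17-month-old cortex), 5.68% (10-month-old whole brain) and 6.19% (17-month-old whole brain), and 23%, 10% and 9.73% of miRNAs did not overlap.

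**Figure D2:**
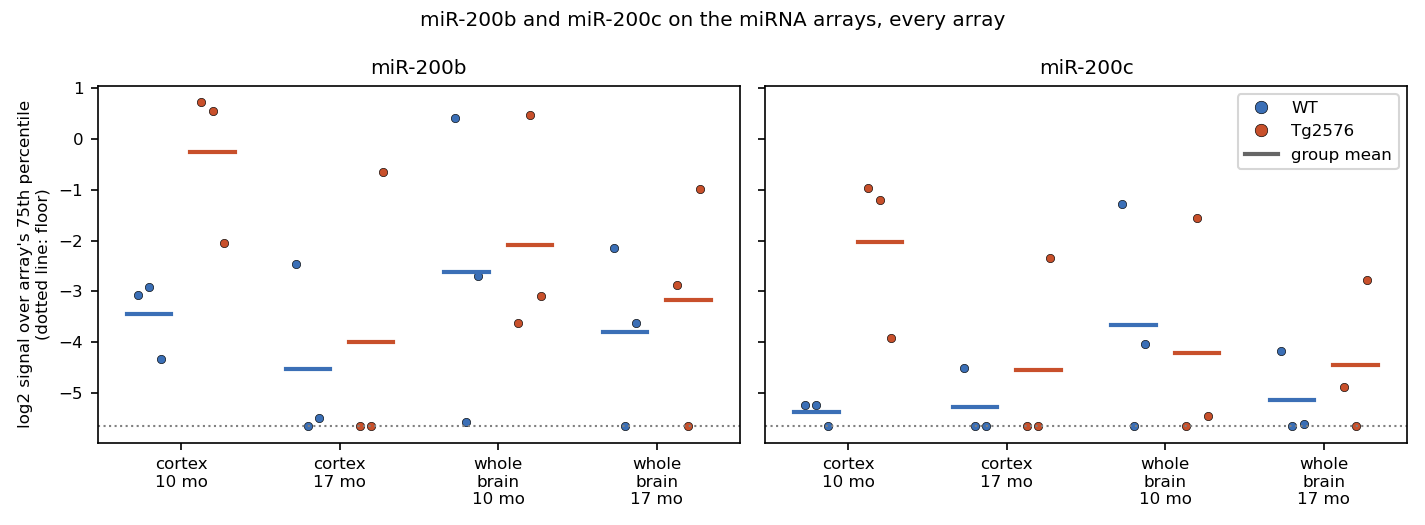
Log2 signal of miR-200b and miR-200c on every miRNA array (y axis, over the 75th percentile of the array; dotted line, floor at -5.66) by tissue and age (x axis), with WT in blue, Tg2576 in orange and a bar for the group mean of 3 arrays. The genotypes are apart in the 10-month-old cortex and overlap in the other 3 pairs of groups, where single arrays reach as high as 0.47.

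The comparison of Tg2576 with WT asked whether reported targets were lower where miR-200b and miR-200c were higher, in the 10-month-old cortex above all. No member was called in any of the 4 comparisons by limma with Benjamini-Hochberg adjustment over all probes (adjusted p under 0.05), and no probe of the arrays was (0% in each). At an unadjusted p under 0.05, 1 of 5 members passed in 10-month-old cortex where 9.95% of probes did, 0 of 5 in 17-month-old cortex (9.32%), 1 of 5 in 10-month-old whole brain (11.4%) and 3 of 5 in 17-month-old whole brain (13%). The 2 genotypes did not overlap for 0 of 5 members in the first 3 comparisons, against 17.2%, 16% and 17.6% of probes, and for 3 of 5 in 17-month-old whole brain, against 22%. With so few members, a share of 1 in 5 is near the background.

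In 10-month-old cortex, Zfpm2 stood at 0.36, 0.64 and 0.53 in WT and at 0.13, 0.08 and 0.41 in Tg2576. Of the Tg2576 arrays 2 were below every WT array and the third, the one of the 3 with the lowest miR-200b, was above 1 of them. Their difference in log2 was -0.30 (SE 0.12, 95% confidence interval -0.60 to -0.012, adjusted p 0.498), and the second probe gave -0.35 (adjusted p 0.502).

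For both Zeb genes the interval of the difference held 0. Zeb1, at 2.10, 2.02 and 1.95 in WT and 2.11, 2.26 and 2.05 in Tg2576, differed by 0.12 (interval -0.088 to 0.32, adjusted p 0.650). Zeb2, at 1.60, 1.58 and 1.70 in WT and 1.57, 1.16 and 1.74 in Tg2576, differed by -0.14 (interval -0.51 to 0.23, adjusted p 0.775), and both pairs of groups overlapped. For Jun the difference was 0.0093 (interval -0.24 to 0.26) and for Srsf1 0.00070 (interval -0.15 to 0.16), and the sign of both turned when arrays were centred on their median (-0.036 and -0.044). These intervals leave room for a level lower in Tg2576 by up to 0.51 in log2 for Zeb2 and for smaller amounts for the other three.

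Olfactory bulb markers differed between these groups too. Their mean level was -1.48 to -1.01 in 10-month-old WT cortices and -0.60 to 0.66 in 10-month-old Tg2576 cortices. Of the 18 genes, 15 were higher in Tg2576 at an unadjusted p under 0.05, against 9.95% of all probes, and none of them was called. Omp, a protein of mature olfactory sensory neurons, had a mean of -3.31 in WT and 0.76 in Tg2576, and 14 of the 18 genes were well above background on all 24 arrays. The part of this list in the Zfpm2 difference was not tested.

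In 17-month-old cortex, the 5 differences ran from -0.050 for Jun to 0.35 for Zfpm2, with adjusted p values of 0.724 to 0.980 for the set. Zfpm2 (0.93, 0.47 and 0.31 in Tg2576) differed most, with an interval of -0.42 to 1.12 that held 0. The low first WT array decided that value, since the difference without it was 0.031, and on slide 2, with 1 WT and 3 Tg2576 arrays, it was -0.20.

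In 10-month-old whole brain, all 5 differences were above 0, from 0.061 for Zfpm2 to 0.35 for Zeb2, beside a median of 0.0087 over all genes. Zeb2 stood at 0.93, 0.97 and 1.32 in WT and at 1.36, 1.62 and 1.29 in Tg2576, with 1 Tg2576 array below the highest WT array (interval 0.0041 to 0.69, adjusted p 0.438). The second Zeb2 probe gave 0.60 without overlap (adjusted p 0.431). Zeb1 differed by 0.20 (adjusted p 0.473) and Srsf1 by 0.21 (adjusted p 0.475). On slide 2, with 3 WT arrays and 1 Tg2576 array, the differences were 0.29 for Zeb2, 0.093 for Zeb1 and 0.036 for Srsf1, while those of Zfpm2 and Jun were below 0 (-0.13 and -0.14).

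In 17-month-old whole brain, Zeb1, Zeb2 and Srsf1 were lower in each Tg2576 array than in any WT array. Zeb1 stood at 2.37, 2.28 and 2.31 in WT and at 2.25, 2.06 and 1.95 in Tg2576, a difference of -0.23 (SE 0.095, adjusted p 0.382). Zeb2 stood at 1.22, 1.27 and 1.13 against 1.04, 1.003 and 0.84, a difference of -0.25 (SE 0.084, adjusted p 0.356). Srsf1 stood at 1.98, 1.96 and 1.92 against 1.78, 1.80 and 1.70, a difference of -0.19 (SE 0.065, adjusted p 0.355). None of the 3 passed the adjusted test, and Jun and Zfpm2 differed by 0.053 and 0.0039.

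The other probes of these genes did not all follow. The second Zeb2 probe gave -0.022 and the second Srsf1 probe 0.086, while the third Srsf1 probe gave -0.25 without overlap and the second Zfpm2 probe -0.21 without overlap. All 6 arrays lay on 1 slide. The 17-month-old Tg2576 whole brains were the dimmest group, with a 75th percentile of 507 to 612 against 642 to 761 in WT of that age and 636 to 708 in 10-month-old Tg2576 whole brains, and the part of signal strength in these differences, in those with age in Tg2576 whole brain and in the interaction was not tested. Beside these values, 6 of 9 cerebellar markers were lower in Tg2576 at an unadjusted p under 0.05 (median -1.32 in log2), 6 of 12 oligodendrocyte markers were lower (mean level 2.35 to 2.63 against 2.81 to 2.84) and 7 of 12 microglial markers were higher (2.44 to 2.55 against 2.27 to 2.29), with no marker called. Their part in the differences was not tested.

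**Figure D3:**
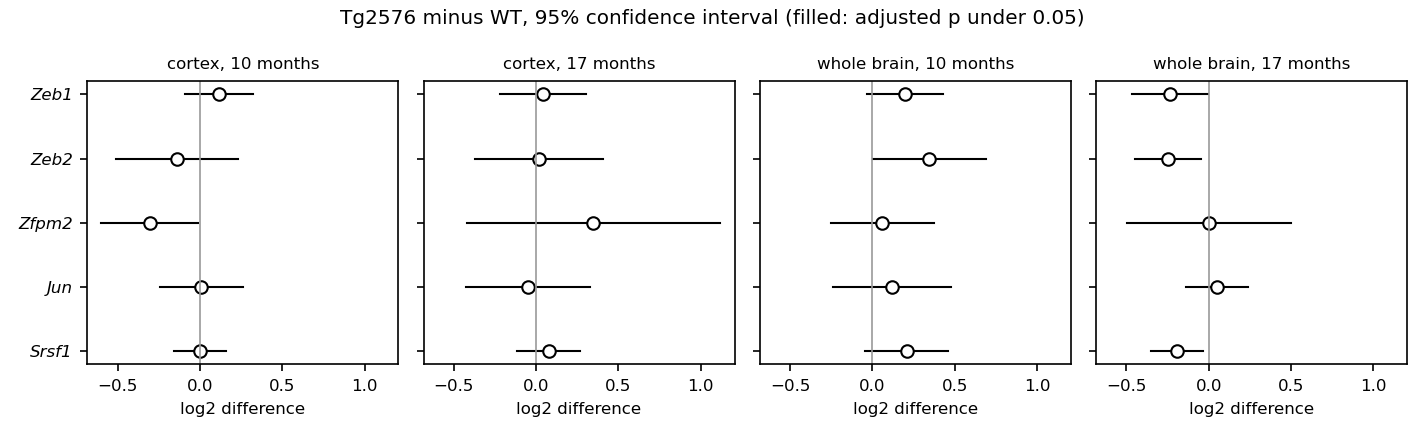
Difference between Tg2576 and WT in log2 level (x axis) for each gene (rows), in 1 panel per tissue and age, with a circle for the difference and a line for its 95% confidence interval. No circle is filled, since no adjusted p was under 0.05, and the widest line is Zfpm2 in 17-month-old cortex (-0.42 to 1.12).

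A term for genotype by age was also fitted to the 12 arrays of each tissue, which gives the difference at 17 months minus that at 10 months. In whole brain it was -0.43 for Zeb1 (SE 0.13), -0.59 for Zeb2 (SE 0.17) and -0.40 for Srsf1 (SE 0.12), with adjusted p values of 0.197, 0.191 and 0.191. None was called, and 0% of all probes were, while 16.8% of probes had an unadjusted p under 0.05. The same arrays gave the 2 genotype differences behind each value, which did not pass either, so the interaction is no separate evidence. Without the first 10-month-old Tg2576 whole brain, the array on slide 2, the Srsf1 interaction was -0.49 with an adjusted p of 0.0460. That was the 1 call among 17 alternatives, over which the adjusted p ran up to 0.364. The WT whole brains lay on slide 2 at 10 months and on slide 3 at 17 months, while the other Tg2576 whole brains lay on slide 3. Slide is thus mixed into the whole-brain interaction, and without that array the 2 cannot be told apart. Zfpm2 and Jun had interactions of -0.057 and -0.068 in whole brain. In cortex, where 0% of probes were called and 9.41% passed unadjusted, the interaction was 0.65 for Zfpm2 (SE 0.37, adjusted p 0.595) and between -0.076 and 0.15 for the other 4 genes.

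Age gave the one call among the members by the probes described. Jun was higher at 17 than at 10 months in WT whole brain, where the 10-month-old arrays stood at 3.45, 3.53 and 3.21 and the 17-month-old arrays at 3.84, 3.92 and 3.99. All 17-month-old arrays lay above the 10-month-old ones, the difference was 0.52 in log2 (SE 0.10, 1.44-fold) and the adjusted p was 0.0157. In Tg2576 whole brain, Jun stood at 3.25, 3.57 and 3.73 and then at 3.89, 3.98 and 4.05, a difference of 0.45 (SE 0.13, adjusted p 0.0765), which was 0.32 on slide 3 alone with 2 and 3 arrays. In cortex the differences were 0.20 in WT and 0.14 in Tg2576, with overlapping groups. Without the third 17-month-old WT whole brain the adjusted p was 0.0502, and with the replicate number as a block it was 0.0584.

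This call stood among many. In WT whole brain 27.8% of probes were called with age, 42.4% passed at an unadjusted p under 0.05 and 48.9% did not overlap, against 1, 2 and 2 of 5 members. The 10-month-old WT whole brains lay on slide 2 and the 17-month-old ones on slide 3, so age and slide cannot be told apart there. Oligodendrocyte markers differed the same way, with 6 of 12 called higher and a mean level of 2.38 to 2.60 at 10 months and 2.81 to 2.84 at 17 months. So did endothelial markers (5 of 12 called higher, -0.16 to 0.10 and then 0.28 to 0.40) and markers of upper-layer neurons (4 of 8, 0.20 to 0.23 and then 0.34 to 0.42). Mean levels were also higher for astrocyte markers (3 of 10, 2.82 to 2.87 and then 2.98 to 3.07) and markers of deep-layer neurons (3 of 12, 1.37 to 1.54 and then 1.56 to 1.65). None of these mean levels overlapped between the ages. The shares of astrocyte and deep-layer markers called higher lay near or below the 27.8% of probes called in either direction. Mean levels of microglial, interneuron, cerebellar, olfactory bulb, choroid plexus and blood markers overlapped between the ages. The part of the marker lists in the Jun difference and in the list counts of this comparison was not tested.

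Zeb1 was the other gene without overlap in that comparison, at 2.04, 1.94 and 2.19 and then 2.37, 2.28 and 2.31, a difference of 0.26 (SE 0.083, adjusted p 0.0591). Without the third 10-month-old array the adjusted p was 0.0357. Zeb1 was called there in 4 of 16 alternatives, with adjusted p values of up to 0.165. Zeb2, Zfpm2 and Srsf1 differed by 0.13, 0.032 and 0.025, all with overlap, although the second Zfpm2 probe gave 0.26 without overlap (adjusted p 0.0578).

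In Tg2576 whole brain the differences of the Zeb genes and Srsf1 were below 0. Zeb2 stood at 1.36, 1.62 and 1.29 at 10 months and at 1.04, 1.003 and 0.84 at 17 months, a difference of -0.46 (SE 0.12, adjusted p 0.0510), and its second probe gave -0.34 (adjusted p 0.104). Srsf1 stood at 1.96, 2.20 and 2.25 and then at 1.78, 1.80 and 1.70, a difference of -0.38 (SE 0.10, adjusted p 0.0588). Neither group pair overlapped, neither gene was called, and Zeb1 differed by -0.16 (adjusted p 0.340). The third Srsf1 probe was called (-0.47, adjusted p 0.0400), while the second, whose mean level was nearly that of the probe described, gave -0.10 (adjusted p 0.605).

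On slide 3 alone the differences were -0.49 for Zeb2 and -0.46 for Srsf1, and without the first 10-month-old array, which lay on slide 2, Srsf1 had an adjusted p of 0.0450. Over all 17 alternatives, Zeb2 was called in 4 and Srsf1 in 6, with adjusted p values of up to 0.120 and 0.159. In this comparison 12.1% of probes were called, 31.7% passed unadjusted and 38.6% did not overlap, against 0, 3 and 3 of 5 members.

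In WT cortex, Zeb2 stood at 1.60, 1.58 and 1.70 at 10 months and at 1.36, 0.997 and 1.34 at 17 months, a difference of -0.40 (SE 0.12, adjusted p 0.102). Its second probe gave -0.30 (adjusted p 0.126), and both probes were without overlap. Srsf1 differed by -0.24 (SE 0.075, adjusted p 0.120), with all 17-month-old arrays (1.76, 1.64 and 1.80) below the 10-month-old ones (2.01, 1.96 and 1.94). On slide 1, which held 3 and 2 of the arrays, these differences were -0.45 and -0.27. No member was called, where 4.56% of probes were, 2 of 5 passed unadjusted against 26%, and 2 of 5 did not overlap against 33.5%.

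In Tg2576 cortex the ages lay on different slides, so that age and slide cannot be told apart. Srsf1 was lower at 17 months by 0.16 without overlap (2.03, 1.91 and 1.98 against 1.84, 1.78 and 1.81, adjusted p 0.172), and Zfpm2 was 0.37 higher (adjusted p 0.227) with overlap. Zeb2 differed by -0.24 with overlap, and its second probe by -0.44 without (adjusted p 0.0930). Members called, passing unadjusted and not overlapping numbered 0, 0 and 1 of 5, against 10.3%, 31% and 38.2% of probes.

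**Figure D4:**
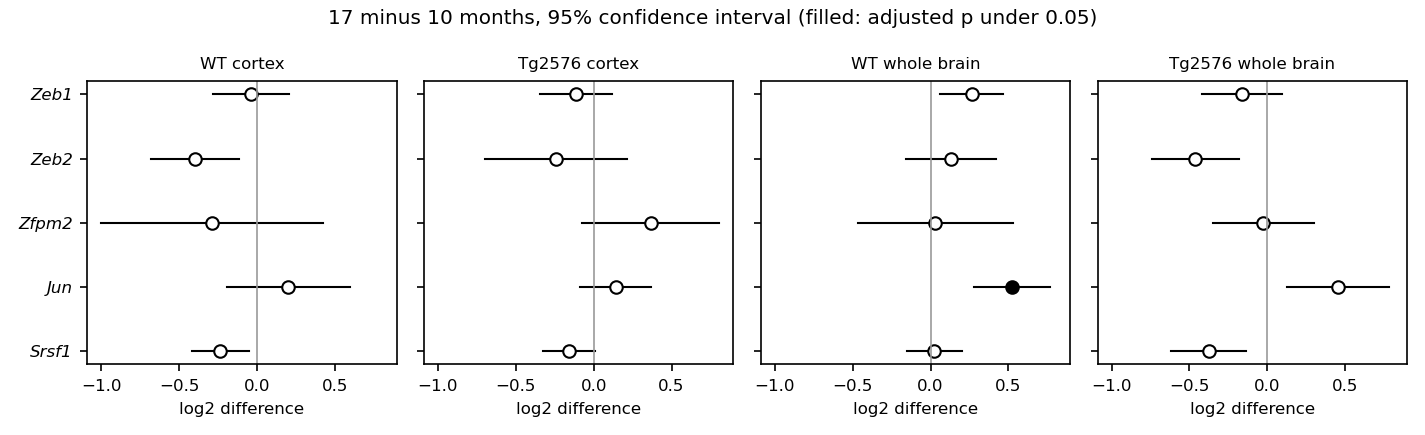
Difference between 17 and 10 months in log2 level (x axis) for each gene (rows), in 1 panel per genotype and tissue, with a circle for the difference and a line for its 95% confidence interval. The filled circle, the single one with an adjusted p under 0.05, is Jun in WT whole brain (0.52), and the circles of Zeb2 and Srsf1 lie to the left of 0 in the other 3 panels.

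Cortex was also set against whole brain, each scaled to its own arrays, so a difference is relative to the other probes of the tissue. No member was called in any of the 4 comparisons, where 0.0101% of probes were called in 10-month-old WT, 0% in 10-month-old Tg2576, 10.3% in 17-month-old WT and 1.97% in 17-month-old Tg2576 mice. The members that passed unadjusted were Zeb2 in 10-month-old WT (23.7% of probes), none in 10-month-old Tg2576 (22.9%), Zeb1 and Srsf1 in 17-month-old WT (30.9%) and Jun in 17-month-old Tg2576 (20.9%). The same genes were those without overlap, against 31.5%, 30.1%, 38.8% and 28.8% of probes.

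Zeb2 was 0.55 higher in 10-month-old WT cortex than in whole brain of the same age and genotype (adjusted p 0.0861), with its 3 cortex arrays at 1.58 or above and its whole-brain arrays at 1.32 or below, and the second probe gave 0.61 (adjusted p 0.0684). At 17 months the WT difference was 0.022. Zeb1 was 0.34 lower in 17-month-old WT cortex (adjusted p 0.0735) and Srsf1 0.22 lower (adjusted p 0.105), and Jun was 0.35 lower in 17-month-old Tg2576 cortex (adjusted p 0.0948). In none of the 4 comparisons did a slide hold arrays of both tissues, so tissue and slide cannot be told apart.

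The genes around the 5 members were taken from lists of their partners and targets, described by counts beside those of all genes. For the 4 genotype comparisons, 0 genes were called in any of 7 lists: other reported miR-200 targets (22 genes tested), epithelial genes repressed by Zeb factors, inducers and markers of the epithelial-mesenchymal transition, Zeb cofactors, Fog and GATA factors, AP-1 subunits and SR splicing proteins. In 10-month-old cortex the median difference of the other targets was -0.018 beside 0.010 over all genes, with 1 of 22 lower and 0 higher at an unadjusted p under 0.05. Rps6kb1, which encodes the S6 kinase p70 and was carried forward by the study as a miR-200 target, stood at 3.48, 3.33 and 3.61 in 10-month-old WT cortices and at 3.45, 3.54 and 2.64 in Tg2576 cortices. Only the third Tg2576 array stood below the WT arrays, the difference was -0.27 (adjusted p 0.733), and the other genotype differences were 0.071, -0.068 and 0.24, with adjusted p values of 0.538 to 0.795. The second probe of Rps6kb1 was lower in every 10-month-old Tg2576 cortex (0.50 to 0.60 against 0.62 to 0.72, adjusted p 0.528) and higher in every 10-month-old Tg2576 whole brain (0.72 to 0.90 against 0.50 to 0.61, adjusted p 0.431). Its 4 probes disagreed, with correlations of -0.33 to 0.19 between the probe described and the others.

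With age in WT whole brain, 8 of 22 other targets were called higher and 2 lower, where 30.3% of genes were called and the median was 0.19 beside 0.048 over all genes. The largest were Foxf2, a forkhead factor of pericytes (1.43), Flt1, a VEGF receptor that is also 1 of the endothelial markers (0.89), Klhl20, a ubiquitin ligase adaptor (0.54), and E2f3, a cell cycle factor (0.49). Rps6kb1 was 1 of the 2 called lower (-0.31, adjusted p 0.0377), with 3.51, 3.73 and 3.54 at 10 months and 3.26, 3.26 and 3.34 at 17 months. Of its other probes 1 was called lower there too (-0.38, adjusted p 0.0271) and another was not (-0.096).

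Of the transition genes, 8 of 13 were called higher and 0 lower, led by Tgfb1, a ligand that induces the transition (1.04), Vim, a mesenchymal intermediate filament (0.94), Twist2 (0.62) and the receptor Tgfbr2 (0.56). Of the epithelial genes that Zeb factors repress, 4 of 16 were called higher and 0 lower, a share below the 30.3% of all genes: Dsp and Tjp3 of cell junctions (0.69 and 0.68), Ocln of tight junctions (0.61) and the splicing regulator Esrp1 (0.42). Zeb cofactors gave 5 higher and 1 lower of 11, among them Smad3 (0.54), Smad1 (0.41) and Smad4 (0.41), which carry signals of the wider TGF-beta family, and the deacetylase Hdac2 (-0.39).

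Zfpm1, the paralogue of Zfpm2, was called higher (1.03) together with Gata2 (1.39) and Gata3 (1.28), which made 3 of 4 genes tested in its list. Of 9 AP-1 genes beside Jun, 3 were called higher, a share near the 30.3% of all genes: Jund (0.84), Fosb (0.39) and Junb (0.38). Of 9 SR proteins beside Srsf1, Srsf4 was called higher (0.64) and Srsf3 lower (-0.61), a share below it.

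In Tg2576 whole brain, where 15.9% of genes were called, the same lists gave 19 calls. They included Tgfb1 (1.11) and Vim (0.78), Zfpm1 (1.17), Gata3 (1.06) and Gata2 (0.90), Jund (0.66), and Foxf2 (1.09), Flt1 (0.72), Fn1, a matrix protein (0.67), and Sec23a, a coat protein of secretory vesicles (-0.41), among 4 higher and 2 lower of 22 other targets. Of the cofactors, Smarca4 (0.50), Smad3 (0.42) and Ctbp1 (0.42) were higher and Hdac2 lower (-0.50). Among the SR proteins Srsf4 (0.38) and Srsf2 (0.33) were higher and Srsf10 lower (-0.45), and 0 of 16 epithelial genes were called. Endothelial markers had 5 of 12 called higher and 2 lower there, with a mean level of -0.069 to 0.16 at 10 and 0.23 to 0.27 at 17 months, and their part in these counts was not tested.

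In cortex the counts were smaller. Tg2576 mice, with 11.2% of genes called, had 11 such calls, among them Gata3 (3.48, with 2 of 3 arrays above background at 10 months), Gata2 (1.32), Zfpm1 (0.93), Tgfb1 (0.83), Vim (0.43), Tgfbr2 (0.40), Flt1 (0.58), Msn, which links actin to the membrane (0.42), Plcg1 (0.35), the AP-1 partner Batf3 (0.45) and Srsf10 (-0.37). WT mice, with 5.97% called, had 5: Foxf2 (0.85), Zfpm1 (0.83), Tgfb1 (0.67), Smad1 (0.40) and Ctbp1 (0.37). Set against the list sizes given for WT whole brain, both cortex counts lay near the share of all genes called. Whether the lists had a larger share of calls than all genes was not tested in any comparison. These counts moved with single arrays: leaving out 1 array at a time gave 0 to 5 calls in Tg2576 cortex, 0 in WT cortex, 1 to 9 in Tg2576 whole brain and 23 to 30 in WT whole brain, where the lists had 36 calls with every array. Rps6kb1 differed with age by -0.15 in WT cortex, 0.19 in Tg2576 cortex and -0.0010 in Tg2576 whole brain, with adjusted p values of 0.402 or more, while other probes of it were called lower in WT cortex (-1.28, on a probe above background on 5 of 24 arrays) and in Tg2576 whole brain (-0.42).

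Between the tissues, these lists had calls in 17-month-old WT mice alone, 12 in number where 8.95% of genes were called (0 to 18 when 1 array was left out). As for the members, no slide held both tissues, so that these calls cannot be told apart from the slide. Gata3 and Gata2 (-1.07) were lower in cortex than in whole brain, Gata3 with 1 of 3 cortex arrays above background and so by an amount not well measured, as were Klhl20 (-0.48), Flt1 (-0.46), Cfl2, an actin-severing protein (-0.34), Vim (-0.50), Tgfb1 (-0.32), Jund (-0.43) and Ocln (-0.52). Ovol2, an epithelial repressor of Zeb1 (0.53), and Pkp3 of desmosomes (0.48) were higher. Gata4 was higher in cortex by at least 1.44-fold, since no whole-brain array was above background. In the same comparison 8 of 12 oligodendrocyte markers were called lower in cortex. Rps6kb1 differed between the tissues by -0.12, -0.32, 0.039 and -0.13 in the 4 comparisons, with adjusted p values of 0.452 or more.

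Each gene was then set against miR-200b and miR-200c over the 12 pairs of arrays of a tissue, 20 relations in all. None passed after Benjamini-Hochberg adjustment over the 20 (permutation test with 100000 resamples, two-sided, smallest adjusted p 0.671 for Pearson's r and 0.378 for Spearman's rho). The r values ran from -0.57 to 0.53 in cortex, 4 of 10 of them below 0, and from -0.21 to 0.14 in whole brain, 5 of 10 below 0.

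Zfpm2 gave the lowest values. In cortex its r with miR-200b was -0.57 (permutation p = 0.0494, adjusted p 0.671) and its rho -0.60 (permutation p = 0.0450, adjusted p 0.450). With miR-200c, r was -0.50 (permutation p = 0.105, adjusted p 0.671) and rho -0.68 (permutation p = 0.0189, adjusted p 0.378). The cortices with the highest miR-200b, the first 2 Tg2576 arrays at 10 months, had Zfpm2 levels of 0.13 and 0.08, and only the first 17-month-old WT cortex was lower. Without the 2 arrays farthest from the median of miR-200b, r was -0.48, and for miR-200c it was -0.38.

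Within the 10-month-old cortices the r of Zfpm2 was -0.88 with miR-200b (exact permutation p = 0.0403, n = 6) and -0.91 with miR-200c (exact permutation p = 0.0264, n = 6). Within the 17-month-old cortices it was -0.58 (exact permutation p = 0.225, n = 6) and -0.38 (exact permutation p = 0.433, n = 6). As deviations from the group means it was -0.69 (permutation p = 0.0119) and -0.58 (permutation p = 0.0482). Those permutations moved the deviations over all cortices and not within groups, and did not allow for the group means removed. The p values of the deviations can therefore be too small. Among the 8 cortices on slide 1 the r of Zfpm2 was -0.36 (exact permutation p = 0.386) and -0.38 (exact permutation p = 0.361). Adjusted over the 20 relations under each setting, none passed, and over all alternatives tried the adjusted p ran from 0.238 to 0.939 for miR-200b and from 0.233 to 0.939 for miR-200c. In whole brain r was -0.21 and -0.19, with permutation p values of 0.508 and 0.545 and adjusted p values of 0.839.

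Zeb1 and Srsf1 went the other way in cortex. Zeb1 had an r of 0.45 with miR-200b and 0.43 with miR-200c (permutation p = 0.143 and 0.170, both with an adjusted p of 0.671), which were 0.067 and -0.11 without the 2 farthest arrays, so these values rest on those arrays. Srsf1 had r of 0.53 and 0.36 (permutation p = 0.0775 and 0.242), Jun -0.40 and -0.25, and Zeb2 0.25 and 0.027. On slide 1 alone the r of Zeb1 was 0.79 and 0.74 (exact permutation p = 0.0196 and 0.0322, 8 arrays, adjusted p 0.322 for both). Within the 10-month-old cortices it was 0.81 with miR-200b (exact permutation p = 0.0444, n = 6) and 0.76 with miR-200c (exact permutation p = 0.0653, n = 6). These values had the opposite sign to those of Zfpm2 in the same arrays. Within the 17-month-old cortices the r of Zeb1 was -0.065 and -0.21 (exact permutation p = 0.883 and 0.800, n = 6). In whole brain, Zeb1, Zeb2, Jun and Srsf1 lay between -0.20 and 0.14.

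**Figure D5:**
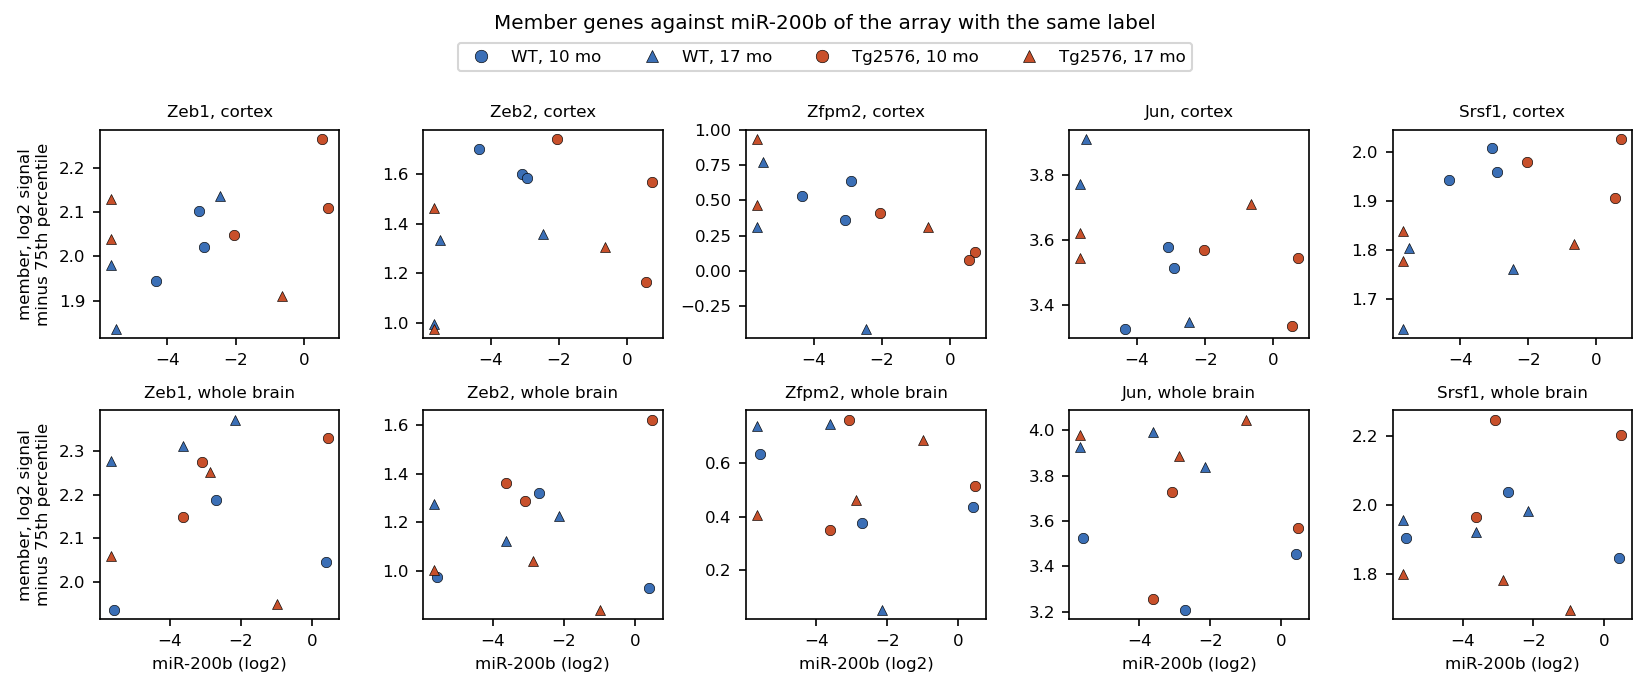
Log2 level of each gene (y axis) against the log2 value of miR-200b (x axis) on the miRNA array with the same label, cortex above and whole brain below, with WT in blue, Tg2576 in orange, circles for 10 and triangles for 17 months. The lowest r is that of Zfpm2 in cortex (r = -0.57, 12 arrays), which did not pass (permutation test, adjusted p 0.671 over 20 relations). In whole brain no panel has an r beyond -0.21 to 0.14.

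The olfactory bulb marker list was correlated with the same arrays, 14 relations in all. Its mean level had an r of 0.93 with miR-200b in cortex and 0.95 in whole brain, and 0.99 and 0.92 with miR-200c, with rho of 0.80 to 0.94 and adjusted permutation p values of at most 0.00742. With Zfpm2 in cortex its r was -0.61 (permutation p = 0.0326, adjusted p 0.0912) and its rho -0.83 (permutation p = 0.00175, adjusted p 0.00612). This r was -0.85 without the 2 arrays farthest from the median of Zfpm2, which need not be those left out above by their miRNA value. In whole brain the r with Zfpm2 was -0.083. So in cortex Zfpm2 was lower where olfactory bulb markers were higher, and its relation to miR-200b apart from that list was not tested.

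Among 14591 genes well above background on all 24 arrays, the 3 whose levels ran most like each member were found by Pearson's r over the 24 arrays, as a description. For Zeb1 they were Gm6548 (0.88), Rcn2, a calcium-binding protein of the endoplasmic reticulum (0.88), and Cfl2 (0.87), which is itself among the reported miR-200 targets. For Zeb2 they were the neuronal adhesion molecule Opcml (0.92), the kinase Hipk3 (0.89) and the cadherin Cdh12 (0.89). Zfpm2 had the weakest likeness, with Tmem120b (0.75), the nuclear receptor Rora (0.74) and Tmem178 (0.72). For Jun they were Thap7, Septin9 and Abhd11 (0.90 each), and for Srsf1 the tRNA methyltransferase Trmt11 (0.92), Cnot4 of the deadenylase complex (0.92) and the zinc-finger gene Zfp760 (0.91).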

How the data were processed

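Brain RNA of WT and Tg2576 mice was hybridised to 24 mRNA and 24 miRNA 1-colour Agilent arrays. The authors deposited scanner files with a processed intensity per probe, extracted with Feature Extraction 10.7.3.1 per the submitters' processing notes, and tables of log2 values, which the authors deposited after normalization in GeneSpring GX. In those tables, at least 99.8% of the mRNA values matched the log2 intensity less one constant per array, near its 75th percentile, to 0.01, and the miRNA values were log2 total gene signals shifted by a constant at rank 90.2%.

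Here each mRNA intensity was scaled to the 75th percentile of its array and log2-transformed. Probes entered a test if 2 or more of the arrays in either group called them well above background. Differences were tested with limma 3.58.1 (R 4.3.3) in the 6 arrays compared, with Benjamini-Hochberg adjustment over all probes, and "called" means an adjusted p under 0.05. A miRNA was the mean over its probes, scaled to the 75th percentile of the 403 probes well above background on all arrays. Correlations used SciPy 1.17.1 with permutation tests, exact for 6 or 8 arrays and with 100000 resamples for 12. Arrays give no counts, so that the number of arrays limits the precision. In data simulated for the 4 genotype comparisons (36980 to 39629 probes), 54 to 71% of changes of 1 in log2 and 91 to 93% of changes of 2 were recovered. The noise was drawn independently for each probe. The genotype differences of the members were all smaller than 1 in log2, and recovery at their size was not simulated.

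Named genes were the 5 members, both miRNAs and Rps6kb1 in every comparison, up to 4 called genes per list with the largest change, and the 3 genes most correlated with each member. The members and gene lists were chosen with earlier results of these data known. The comparisons share arrays and are not independent of each other. Alternatives were quantile normalization, median centring, the authors' log2 values, normexp background correction with an offset of 50, other filters, all 24 arrays in 1 model, a block for the slide or for the replicate number, the t-test of the methods, other miRNA floors and scalings, and leaving out each array.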

Additional observations from a re-analysis of the deposited data

How the results depend on the processing

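No genotype difference of a member was called under any alternative tried, and 194 of the 210 values with other settings kept their direction and their side of the threshold. Differences near 0 changed sign. In the comparison of Tg2576 with WT in 10-month-old cortex, Srsf1 was 0.00070 and became -0.0077 with quantile normalization, -0.044 with median centring, -0.00031 with the authors' log2 values, -0.0054 with normexp and quantile normalization and -0.012 as the mean over all probes, and Jun became -0.036 with median centring. In 17-month-old cortex, Zeb2 was -0.0060 with normexp, -0.040 as the mean over all probes and -0.088 with the slide as a block, and Zfpm2 was -0.20 with the slide as a block. In whole brain, Zfpm2 and Jun at 10 months were -0.13 and -0.14 with the slide as a block, and at 17 months Zfpm2 was -0.033 with median centring, -0.014 with normexp and -0.11 over all probes, and Jun -0.0077 with quantile normalization. The Jun interaction in cortex was 0.0023 with median centring. The cause of these changes was not tested.

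With age, Zeb1 in WT cortex was 0.035 with the slide as a block, Jun in Tg2576 cortex -0.011 with normexp, and in WT whole brain Zfpm2 was -0.022 with normexp and Srsf1 was -0.045 with quantile normalization, -0.085 with normexp and -0.0096 over all probes. Between tissues, normexp gave 0.029 for Zeb1 and -0.18 for Zfpm2 in 10-month-old WT and 0.083 for Jun in 10-month-old Tg2576, quantile normalization gave 0.011 for that Jun value, median centring gave -0.019 for Zeb2 in 10-month-old Tg2576 and -0.045 in 17-month-old WT, and the mean over all probes gave -0.0044 for Srsf1 in 17-month-old Tg2576. Among miRNAs, the 10-month-old whole-brain difference of miR-200c was 1.49 with the authors' log2 values and 0.048 with a floor 4 times lower, and with the slide as a block miR-200b was -0.99 at 10 and -0.28 at 17 months in whole brain.

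The number of members called with age moved with the setting. In WT whole brain it was 1, and 2 with median centring, with probes well above background on every array or with all 24 arrays in 1 model, and 0 with the replicate block. In Tg2576 whole brain it was 0, and 2 with quantile normalization or the stricter filter, 3 with normexp or all 24 arrays, and 1 with the slide as a block. In WT cortex it was 0, and 2 with normexp and 1 with all 24 arrays. Between tissues it was 1 in 10-month-old WT with normexp or all 24 arrays and 2 in 17-month-old WT with all 24 arrays.

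For genes of the pathway lists, all 24 arrays in 1 model called 3 in the genotype comparison of 17-month-old cortex, 19 with age in WT cortex, 21 in Tg2576 cortex and 29 in Tg2576 whole brain, and between tissues 2 and 6 at 10 months and 22 and 8 at 17 months in WT and Tg2576. Normexp called 9 in WT cortex and 20 in Tg2576 cortex with age, and between tissues 6 and 1 at 10 and 19 and 3 at 17 months. Without a filter on dim probes the counts were 0 in WT and Tg2576 cortex and 21 in WT whole brain with age, and 0 in WT and 5 in Tg2576 between tissues at 17 months. Median centring gave 1 in WT cortex with age and 1 in 10-month-old Tg2576 between tissues, as did quantile normalization for the latter. The methods' t-test called 5 in Tg2576 cortex, 7 in Tg2576 whole brain and 6 between the tissues of 17-month-old WT. With the slide as a block the counts were 0 in WT cortex, 6 in Tg2576 whole brain and 3 between the tissues of 17-month-old WT.

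Replicate numbers did not pair the samples: the lowest correlation of deviations between same-numbered arrays was -0.16 to 0.038 over the 12 comparisons, and every array correlated best with its own number in 1 of them, cortex against whole brain in 17-month-old Tg2576. With the replicate block 0 members were called in WT whole brain with age (Jun, adjusted p 0.0584), and pathway genes called numbered 0 in both cortices, 20 in WT whole brain, 0 in Tg2576 whole brain and 0 between the tissues of 17-month-old WT.

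Leaving out 1 array at a time gave Jun 0.43 to 0.59 with age in WT whole brain, Zeb1 0.20 to 0.33 there, Srsf1 -0.46 to -0.32 with age in Tg2576 whole brain and -0.49 to -0.35 for its whole-brain interaction. Members called were 0 to 2 in WT and 0 to 1 in Tg2576 whole brain with age. Pathway genes called were 0 to 5 in Tg2576 cortex, 1 to 9 in Tg2576 whole brain, 0 in WT cortex and 23 to 30 in WT whole brain with age, and 0 to 1, 0 to 4 and 0 to 18 between tissues in 10-month-old WT, 10-month-old Tg2576 and 17-month-old WT. The sign turned for Tg2576 against WT in cortex at 10 months for Jun (-0.064 to 0.083), Srsf1 (-0.027 to 0.033) and Zeb2 (-0.26 to 0.025), and at 17 months for Jun (-0.21 to 0.066), Zeb1 (-0.032 to 0.12) and Zeb2 (-0.10 to 0.15). It turned for Zfpm2 in whole brain at 10 (-0.049 to 0.16) and 17 months (-0.23 to 0.12). With age it turned for Srsf1 (-0.016 to 0.079) and Zfpm2 (-0.085 to 0.26) in WT whole brain, Zeb1 (-0.11 to 0.035) and Zfpm2 (-0.56 to 0.029) in WT cortex and Zfpm2 in Tg2576 whole brain (-0.12 to 0.085). Between tissues it turned in 10-month-old WT for Jun (-0.017 to 0.15), Srsf1 (-0.00072 to 0.095), Zeb1 (-0.093 to 0.033) and Zfpm2 (-0.036 to 0.11), in 10-month-old Tg2576 for Jun (-0.17 to 0.070) and Zeb2 (-0.058 to 0.23), in 17-month-old WT for Zeb2 (-0.042 to 0.14) and Zfpm2 (-0.56 to 0.026) and in 17-month-old Tg2576 for Zeb1 (-0.13 to 0.023) and Zfpm2 (-0.13 to 0.18). Interactions turned for Jun in cortex (-0.22 to 0.057) and whole brain (-0.20 to 0.037), Zeb2 in cortex (-0.0084 to 0.29) and Zfpm2 in whole brain (-0.29 to 0.060). For miRNAs the ranges were 2.82 to 4.30 for miR-200c in 10-month-old cortex, -1.12 to 1.59 for miR-200b in 17-month-old cortex, -0.93 to 2.07 and -1.89 to 0.62 for miR-200b and miR-200c in 10-month-old whole brain and -0.45 to 1.89 and -0.13 to 1.31 at 17 months.

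No correlation passed adjustment under any alternative, and 38 of 240 values changed sign. In cortex with miR-200b, Zeb2 was -0.0049 as deviations from group means and -0.66 within 10 months, Jun 0.022 within 10 months and Zeb1 -0.065 within 17 months. With miR-200c, Zeb2 was -0.15 as deviations, -0.041 with a floor 2 times higher, -0.64 within 10 months and -0.11 among the 8 arrays of 1 slide (an alternative chosen after seeing the data), Zeb1 was -0.21 within 17 months and -0.11 without the 2 farthest arrays, and Jun was 0.033 without them. In whole brain with miR-200b, Jun was 0.040 as deviations, 0.099 and 0.053 within 10 and 17 months and 0.028 without the 2 farthest arrays, Srsf1 was -0.037 as deviations, -0.36 within 17 months and -0.056 without those arrays, Zeb1 was -0.16 within 17 months and Zeb2 -0.46 within 17 months and -0.065 without those arrays. With miR-200c, Zeb1 was 0.10 as rho, 0.25 with the authors' log2 values, 0.18 as deviations, 0.081 with a floor 4 times lower, 0.074 with total gene signal and 0.22 within 10 months. Zeb2 was -0.078 as rho, -0.58 within 17 months and -0.33 without those arrays. Jun was 0.11 as deviations, 0.052 and 0.21 within 10 and 17 months and 0.11 without those arrays. Srsf1 was -0.021 as deviations, -0.049 and -0.50 within 10 and 17 months and -0.34 without those arrays.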
